A study of Homo sapiens with 16 samples.

Results

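Divergent gene pairs are neighbouring genes transcribed away from each other from start sites so close that the DNA between them can serve as the promoter of both. In the deposited RNA-seq table, a pair was a gene on the minus strand and a gene on the plus strand whose start site lay 1 to 1000 bp to its right, with both genes spanning less than 400 kb. The start site was taken as the left end of a plus-strand gene and the right end of a minus-strand gene. The search covered chromosomes 1 to 6, 8 to 18, 20 and 21. It gave 631 pairs made of 1253 genes, which were 7.94% of the 15789 genes listed on these 19 chromosomes and part of the 19333 genes of the table. Positions alone chose the pairs, and no expression value entered the choice. Further pairs were left out because a gene reached the span limit, and they numbered 8.

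The libraries came from HEK293 cells, a human embryonic kidney cell line, and held total RNA sequenced after ribosomal RNA was removed. Scramble cells (2 libraries) received a negative control RNA, and Top1 KD cells (2 libraries) received 10 nM of siRNA against the transcript of topoisomerase I. Both groups were parental HEK293 cells harvested on day 5 after the first transfection, without any other genetic change named in the labels, and all samples of the study came from different passages. Which Top1 siRNA was used for these libraries is not given in the sources used here. None of the 19333 transcript identifiers matched a name table (0 matches), so genes are given by position. The authors report checking the knockdown of Top1 on Western blots and in RNA-seq data. The TOP1 transcript was not looked up by position, so the depth of its knockdown in these libraries was not established here. Nor was the cell line checked against marker genes.

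Head-to-head arrangement is widespread in mammalian genomes, and many divergent promoters lie in CpG islands and drive housekeeping genes. A moving polymerase overwinds the DNA ahead of it and underwinds the DNA behind it, so the interval between divergent start sites lies behind the polymerases of both genes. Topoisomerase I relaxes such supercoils by nicking and resealing a single strand. The comparison asks whether the genes on either side of such an interval responded together when Top1 was depleted.

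The start sites of a pair lay close together. Distances ran from 2 to 992 bp with a median of 144 bp, and the quartiles were 77.5 and 282 bp. There were 225 pairs at up to 100 bp, 257 beyond that and up to 300 bp, and 149 beyond 300 bp. Chromosome 1 held the most pairs, 77, and chromosome 21 the fewest, 6. Only 9 genes belonged to more than 1 pair. The genes of the pairs had a median span of 22.6 kb, near the 21.7 kb of all genes in the table. A gene on the other strand overlapped 164 of the members (13.1%), and since no source used here states whether reads were counted by strand, reads in such overlaps cannot be assigned to a strand with certainty.

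Divergent genes were mostly expressed in these cells. The expression filter, a minimum of 10 normalized counts in 2 or more libraries, was passed by 1156 of the 1253 members (92.3%), against 67.7% of all listed genes and 68.6% of those on the same chromosomes. Of these, 3 passed through the scramble libraries alone and 4 through the Top1 KD libraries alone. Both genes passed in 552 pairs (87.5%), a single gene in 61 (9.67%) and neither in 18 (2.85%). Among other arrangements, both genes passed in 52.1% of 614 head-to-head pairs with start sites over 1000 bp and up to 10 kb apart, in 36.0% of 808 same-strand neighbours with start sites within 10 kb, and in 76.9% of 724 convergent neighbours whose 3′ ends lay within 1000 bp. The tested members were also a little more abundant, with a median over genes of 668 normalized counts, against 542 for all 13086 tested genes. A normalized count is a read count divided by the size factor of its library and is not scaled for gene length.

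The libraries were deep enough for most members. The scramble libraries held 15258182 and 18366226 recovered reads on genes, and 14681774 and 16503586 were recovered from the Top1 KD libraries. Divergent genes took 9.26% of the reads in each scramble library and 8.44% and 8.66% in the Top1 KD libraries. Both Top1 KD shares lay below both scramble shares. With 2 libraries a group, the smallest two-sided p of an exact permutation test is 0.333. Calls on a member therefore draw on the variance that limma pools over all tested genes. Where nothing in the labels ties libraries to separate cultures beyond the different passages, the p-values measure the spread between these libraries.

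Few divergent genes were called after Top1 depletion, at a share near that of all tested genes, and called falls outnumbered called rises. With 2 libraries a group, a gene that was not called need not be unchanged. Calling a member required a limma adjusted p under 0.05 together with a 1.5-fold or larger change, with levels taken as log2(normalized count + 1), a scale that understates changes of low genes. Of the 1156 tested members, 83 were called (7.18%), while 8.15% of all tested genes were. Higher levels in Top1 KD cells were called for 19 members (1.64%, against 3.88% of all tested genes) and lower levels for 64 (5.54%, against 4.26%). Falls thus made up 77.1% of the called members and 52.3% of all called genes. The share of members called was near the background, and its split between rises and falls was not tested as a set. The number of calls depended on the libraries and shifted when a single library was left out. Falls outnumbered rises among the members in each of these fits. Among all tested genes, the more frequent direction changed with the library left out. The members' median log2 change relative to all tested genes was -0.10 without scramble replicate 1 and -0.10 without scramble replicate 2. It was -0.08 without Top1 KD replicate 1 and -0.13 without Top1 KD replicate 2.

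Without a fold threshold, 184 members had a limma adjusted p under 0.05 (15.9%, against 14.8% of all tested genes). Of these, 36 were higher (3.11%, against 7.17%) and 148 lower in Top1 KD cells (12.8%, against 7.63%). The libraries of the groups did not overlap for 641 members (55.4%, against 57.8% of all tested genes), of which 201 were higher (17.4%, against 28.8%) and 440 lower (38.1%, against 29%). The share that changed by either count lay close to the background, while the share that rose lay under it and the share that fell above it. At least 2-fold changes were called for 16 members (1.38%, against 2.6%), 5 higher and 11 lower.

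Apart from the strong falls, the distribution of changes lay slightly lower for divergent genes. Their median log2 change was -0.10, against 0.00 for all tested genes and 0.02 for the 9378 other tested genes of the same chromosomes. The mean was higher after Top1 depletion for only 39.4% of the members, compared with 50.2% of all tested genes. The spread of their changes was narrower, with an SD of 0.48 log2 units against 0.69, and the middle 90% of members lay between -0.82 and 0.55, against -1.07 and 0.86. Fewer members had low levels, with 137 of 1156 under 100 normalized counts, against 2051 of the 9378 other genes. Whether this narrowed the spread was not tested. The plot of cumulative changes shows the curve of the members to the left of that of other genes over most of its length, with a crossing among strong falls.

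**Figure D1:**
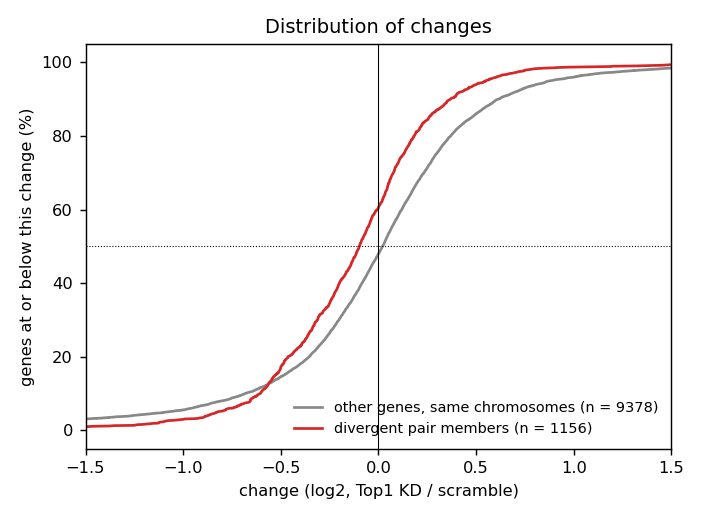
Cumulative distribution of changes. The x axis gives the log2 change of a gene between Top1 KD and scramble cells and the y axis the percentage of genes at or below it, for 1156 divergent genes (red) and 9378 other tested genes of the same chromosomes (grey); the dotted line marks 50%, where the red curve crosses at -0.10 and the grey at 0.02.

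This offset was small but recurred across libraries and chromosomes. Relative to the median of all tested genes, the members' median was -0.12 and -0.13 for Top1 KD replicate 1 against scramble replicates 1 and 2, and -0.09 and -0.08 for Top1 KD replicate 2. Within the groups, the members' median differed by 0.02 between the Top1 KD replicates and by -0.00 between the scramble replicates (second minus first). The members' median was below that of the other genes on 19 of 19 chromosomes, and ranged from -0.20 to -0.01. With library-size scaling instead of the authors' size factors, the median of all tested genes moved to 0.03 and that of the members to -0.07, which left their distance at -0.10. No test of the members as a set was run, and the pairs share all 4 libraries.

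Gene span and level varied with the change, and the members differed from other genes in both. Tested members had a median span of 23.7 kb, shorter than the 31.4 kb of all tested genes. Under 20 kb, the median log2 change was -0.11 for 508 members and -0.03 for 3300 other genes of these chromosomes. From 20 to 80 kb it was -0.12 for 486 members and -0.00 for 3707 other genes, and from 80 to 400 kb it was 0.02 for 162 members and 0.11 for 2371 other genes. Members thus lay lower in each class of span. No member of the longest class was called higher by limma (0 of 162, and 0 also by edgeR and by DESeq2), against 5.69% of the other genes of that class. Falls were called for 5 of these members (3.09%) and for 3.12% of the other genes of that class. At an unadjusted p under 0.05, which 29.3% of all tested genes passed in either direction, 22 of these 162 long members were higher and 26 lower. The split of the other genes of that class at this threshold is not given here. By level, the medians were -0.31 for 137 members under 100 normalized counts, -0.08 for 600 members from 100 to 1000, and -0.10 for 419 members over 1000. The other genes in these classes had medians of -0.09, 0.04 and 0.02. At the highest levels, 19 of the 419 members were called lower (4.53%) and 2 higher (0.48%). Of the 3145 other genes at these levels, 83 were called lower (2.64%) and 105 higher (3.34%).

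The offset also varied with the arrangement of the genes. The median log2 change was -0.11 for members up to 100 bp apart, -0.10 for those between 100 and 300 bp and -0.05 for those further apart. Genes of head-to-head pairs over 1000 bp and up to 10 kb apart had a median log2 change of -0.08, same-strand neighbours -0.04 and convergent neighbours -0.01. These groups share genes, since 52, 97 and 182 of their genes were also divergent members. In contrast, the 52 tested members whose partner was not tested had a median of 0.05, with 1 called higher (1.92%) and 2 called lower (3.85%).

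Over all pairs, the changes of both genes were not correlated. Across the 552 pairs with both genes tested, the log2 changes of the minus-strand and the plus-strand gene had a Spearman correlation of -0.00 and a Pearson correlation of 0.02. These are descriptions across pairs that share all libraries. Both genes moved in the same direction in 283 pairs (51.3%), with 79 pairs both higher and 204 both lower, and in opposite directions in 269. Of single tested members, 39.4% had a higher mean, and how many shared falls this share alone would give was not tested. The sizes of the changes gave no stronger relation, with a Spearman correlation of -0.07. Leaving out pairs with a gene that overlapped another on the other strand gave 51.2% and -0.01 over 416 pairs.

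**Figure D2:**
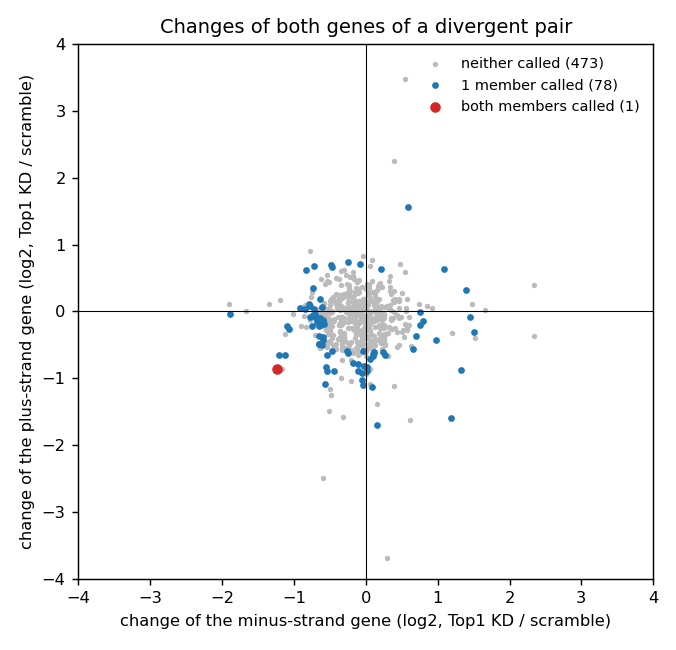
Changes of both genes of each divergent pair. Each point is 1 of 552 pairs, with the log2 change (Top1 KD over scramble) of the minus-strand gene on the x axis and of the plus-strand gene on the y axis; grey marks 473 pairs with neither gene called, blue 78 pairs with 1 gene called and red the single pair with both called, and the cloud shows no slope.

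Calls rarely met in a pair, in divergent as in other arrangements. Single members were rarely called too (1.64% higher, 5.54% lower), and how many pairs these rates alone would give was not tested. Both genes were called in 1 of the 552 pairs, both lower in Top1 KD cells, and no pair had genes called in opposite directions (0 pairs by limma, by edgeR and by DESeq2). In the other arrangements, limma called both genes in the same direction in 1 and in opposite directions in 2 of 320 wider head-to-head pairs, in 2 and 0 of 291 same-strand pairs, and in 2 and 3 of 557 convergent pairs. A single gene was called in 78 pairs and neither in 473. Under looser criteria, pairs that moved the same way outnumbered those that moved in opposite ways. Where their direction is given below, most of them fell. Without the fold threshold, both genes passed a limma adjusted p of 0.05 in 13 pairs in the same direction and in 5 in opposite directions. In the other arrangements these counts were 5 and 3 for wider head-to-head, 6 and 0 for same-strand and 3 and 6 for convergent pairs. At an unadjusted p under 0.05, which 29.3% of all tested genes and 29.5% of the members passed, both genes passed in 42 pairs in the same direction, 4 higher and 38 lower, and in 14 pairs in opposite directions. The libraries of the groups did not overlap for either gene in 102 pairs that moved the same way, 15 of them higher and 87 lower, and in 65 pairs that moved in opposite ways. These counts were 79 and 45 for the 320 wider head-to-head pairs, 55 and 44 for the 291 same-strand pairs and 93 and 85 for the 557 convergent pairs. Falls were also the more frequent direction among single members. Without overlap, 38.1% of members were lower and 17.4% higher, against 29% and 28.8% of all tested genes. Whether the pair counts or the excess of shared falls go beyond these rates was not tested. Pairs past an unadjusted p of 0.05 in the same and in opposite directions numbered 21 and 6 of the 320 wider head-to-head pairs, 14 and 9 of the 291 same-strand pairs and 28 and 19 of the 557 convergent pairs.

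The correlation within pairs was set beside how well the change of a single gene repeated. The change of a gene was computed from 1 scramble and 1 Top1 KD library and compared with its own change from the other 2 libraries. The Spearman correlation was then 0.45 to 0.46, and 68.7% to 69.0% of the members moved in the same direction. When the minus-strand gene was measured in one such set of libraries and the plus-strand gene in the other, the correlation across pairs was -0.03 to 0.03 over the 4 assignments, with 51.1% to 56.5% in the same direction. The change of a member was thus correlated with itself between libraries but not with that of its partner. Differences between replicates gave correlations within pairs of 0.04 for the scramble libraries and -0.01 for the Top1 KD libraries.

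**Figure D3:**
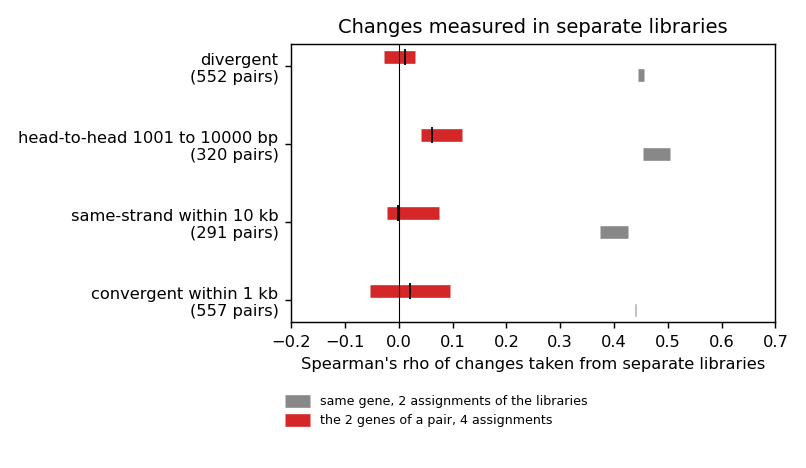
Agreement of changes measured in separate libraries. The x axis gives Spearman's rho and each row an arrangement of neighbouring genes, with grey bars for the range of rho of a gene with itself over 2 assignments of the libraries and red bars, with a black tick at the median, for the genes of a pair over 4 assignments; for divergent pairs the red bar spans -0.03 to 0.03 and the grey bar 0.45 to 0.46.

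The agreement did not follow the distance between the start sites. The same direction was seen in 48.5% of 200 pairs at up to 100 bp, 55.9% of 229 pairs between 100 and 300 bp and 47.2% of 123 pairs beyond 300 bp, with Spearman correlations of -0.12, 0.12 and -0.07. Neither measure moved steadily with distance. In the other arrangements, the same direction was seen in 54.7% of 320 wider head-to-head pairs (correlation 0.10), 52.2% of 291 same-strand neighbours (0.05) and 50.4% of 557 convergent neighbours (0.02). The share of single genes with a higher mean also differed. It was 39.4% for divergent members and 43.4%, 47.6% and 49.0% in these arrangements. Levels were weakly related within divergent pairs. Per kb of span, the scramble levels of both genes had a Spearman correlation of 0.19, against 0.03, 0.10 and 0.00 in the other arrangements.

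Of the pairs nearest the limit of 1000 bp, none held a called gene. Just inside it, the pair chr6:170862429-170863421 (hg19, as all positions here, 992 bp) had log2 changes of -0.34 for the minus-strand and -0.21 for the plus-strand gene, and chr11:65626886-65627876 (990 bp) had -0.06 and 0.00. Just outside it, chr1:243418352-243419358 (1006 bp) had 0.25 and -0.27, and chr8:145690418-145691426 (1008 bp) had -0.47 and -0.42. Both genes moved in opposite directions in the first of the outer pairs and were both lower in the second.

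The partners of called genes mostly lay below 0, whichever way the called gene had moved. The 18 members called higher whose partner was tested had a median log2 change of 0.75, while their partners had a median of -0.23, and 4 of the partners (22.2%) were higher too. The 62 members called lower with a tested partner had a median of -0.72 and their partners a median of -0.10, the same as for all members, and 42 of these partners (67.7%) were lower too. The medians of the partners of risen and of fallen genes were thus both negative. The remaining 3 called members, 1 higher and 2 lower, had no tested partner.

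The difference between partners was also tested within each library. For each pair, the log2 level of the minus-strand gene was subtracted from that of the plus-strand gene and the result fitted with limma, with p-values adjusted over all 13062 pairs of neighbouring tested genes in the table. The partners changed differently in 44 of the 552 pairs (7.97%), while 10.4% of all neighbouring pairs did. In 38 of the 44 the partners moved in opposite directions, which selection for a large difference favours. In 28 a member had also been called by itself. The count was 13 without scramble replicate 1, 18 without scramble replicate 2 and 91 without Top1 KD replicate 2. A typical pair differed by 0.39 log2 units in the size of this contrast, and its mean moved by 0.20 units.

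The mean of both partners, fitted in the same way, was called in 15 pairs (2.72%, against 4.56% of all neighbouring pairs). It was higher in Top1 KD cells in 4 pairs (0.725%, against 1.9%) and lower in 11 (1.99%, against 2.66%). Both partners moved in the same direction in 14 of the 15, which selection for a large mean favours. In 13 of the 15 only a single gene was called by itself. In 2 of the 15 the partners also differed by the test above. For divergent pairs the mean was called in 15 and the difference in 44, and over all neighbouring pairs these counts were 595 and 1363. Since the mean is the narrower measure by construction, the same fold threshold is stricter for it. Without Top1 KD replicate 2, the mean was called in 33 pairs.

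The pair with both genes called lies at chr8:99129469-99129540, where the start sites are 71 bp apart. The minus-strand gene (ENST00000254878, 99114572 to 99129469) had 775 and 693 normalized counts in scramble cells and 248 and 390 in Top1 KD cells. The plus-strand gene (ENST00000401707, 99129540 to 99172062) had 1721 and 2006 in scramble and 1028 and 1008 in Top1 KD cells. For both genes, each Top1 KD library was below each scramble library. The log2 changes were -1.23 (SE 0.22, limma adjusted p = 0.0016) and -0.87 (SE 0.13, limma adjusted p = 0.00051). Their difference was 0.37 (SE 0.26, limma adjusted p = 0.39) and their mean -1.05 (SE 0.13, limma adjusted p = 0.00035). Without scramble replicate 1 the minus-strand gene was no longer called, at -1.15.

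Among pairs in which both genes averaged at least 100 normalized counts, the 5 with the largest called differences held a called gene next to a partner that was not called, or genes that moved in opposite ways. At chr11:126138854-126139028 (174 bp), the minus-strand gene (ENST00000332118) rose from 754 and 802 normalized counts in scramble cells to 2329 and 1954 in Top1 KD cells, a log2 change of 1.45 (SE 0.13, limma adjusted p = 1.3e-05). Its partner had 331 and 319 in scramble and 266 and 357 in Top1 KD cells, a log2 change of -0.08 (SE 0.23) with overlapping groups. The difference between them was -1.53 (SE 0.28, limma adjusted p = 0.0014), plus-strand minus minus-strand gene. The rise of 1 gene was large enough that the mean of the pair was called too, at 0.69.

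At chr2:264179-264869 (690 bp), the minus-strand gene (ENST00000405430) rose from 274 and 290 normalized counts to 551 and 558, a log2 change of 0.97 (SE 0.20, limma adjusted p = 0.0041). The plus-strand gene had 4795 and 4060 in scramble and 3285 and 3246 in Top1 KD cells, a change of -0.43 that passed the adjusted p of limma (0.012) but not the fold threshold. The groups did not overlap for either gene, and the direction was opposite. Their difference was -1.41 (SE 0.25, limma adjusted p = 0.00089).

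A second pair on this chromosome, at chr2:202316302-202316392 (90 bp), had the same form. The minus-strand gene rose from 753 and 653 normalized counts to 1116 and 1093, a log2 change of 0.65 (SE 0.15, limma adjusted p = 0.0075). The plus-strand gene had 1855 and 1512 in scramble and 1157 and 1106 in Top1 KD cells, a log2 change of -0.57 (SE 0.13, limma adjusted p = 0.010) that lay just under the fold threshold. Again the groups did not overlap for either gene. The difference was -1.22 (SE 0.19, limma adjusted p = 0.00031), and the mean of the pair, at 0.04, hid both movements.

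The largest of these 5 differences, at chr3:197686890-197687071 (181 bp), rested on low counts. Larger differences were called in 4 pairs with a gene under 100 normalized counts. The minus-strand gene had 236 normalized counts in both scramble libraries and 144 and 130 in Top1 KD cells, and the plus-strand gene had 68.3 and 141 in scramble and 182 and 186 in Top1 KD cells. The groups did not overlap, and the partners moved in opposite directions, but neither gene was called by itself (log2 changes of -0.78 and 0.90, limma adjusted p = 0.074 and 0.12). Their difference was 1.68 (SE 0.40, limma adjusted p = 0.0098), and without scramble replicate 1 it was 1.17 and no longer called.

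At chr1:156023585-156024543 (958 bp), the plus-strand gene had 385 and 354 normalized counts in scramble and 143 and 199 in Top1 KD cells, a log2 change of -1.13 (SE 0.26, limma adjusted p = 0.0084). Its partner had 931 and 707 in scramble and 964 and 776 in Top1 KD cells, with overlapping groups and a log2 change of 0.09 (SE 0.17). The difference was -1.22 (SE 0.31, limma adjusted p = 0.015). It was no longer called without scramble replicate 2, at -1.08, or without Top1 KD replicate 1, at -0.83.

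**Figure D4:**
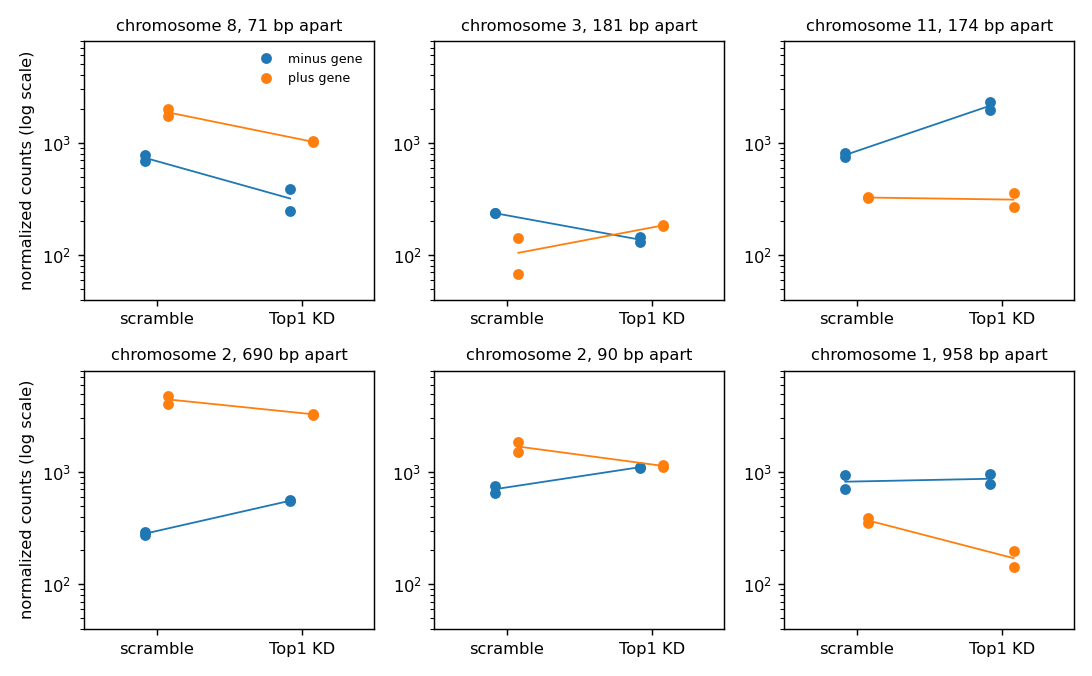
Levels in every library for the pair with both genes called (first panel) and the 5 pairs with the largest called differences among those in which both genes averaged at least 100 normalized counts. Points are normalized counts on a log scale in 2 scramble and 2 Top1 KD libraries for the minus-strand gene (blue) and the plus-strand gene (orange), and lines join the group means; both lines fall on chromosome 8, while in the other panels the lines cross, diverge or approach each other.

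Few pairs rose as a unit, and those named in the following were chosen after their values were seen. Besides the pair on chromosome 11 given above, the mean was called higher in 3 pairs. At chr3:52017425-52017478 (53 bp), the minus-strand gene went from 254 and 200 to 339 and 337 normalized counts and the plus-strand gene from 46.9 and 54.5 to 159 and 144. The groups did not overlap for either gene, and the mean rose by 1.07 log2 units (SE 0.22, limma adjusted p = 0.0063), although only the plus-strand gene was called, at 1.56.

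At chr20:58508710-58508819 (109 bp), the minus-strand gene went from 96.0 and 59.8 to 144 and 182 normalized counts and the plus-strand gene from 763 and 644 to 1121 and 1063. Both genes were higher in each Top1 KD library, and the mean rose by 0.86 (SE 0.21, limma adjusted p = 0.019), or by 0.63 and no longer called without scramble replicate 2. At chr1:155177688-155178490 (802 bp), the minus-strand gene went from 107 and 161 to 312 and 383 while the plus-strand gene had 429 and 614 in scramble and 671 and 607 in Top1 KD cells. Here only the minus-strand gene separated the groups, so the mean of 0.85 (SE 0.18, limma adjusted p = 0.0087) came with a difference of -1.08 that was called as well (limma adjusted p = 0.029). Without scramble replicate 1 the mean of this pair was 0.58 and not called.

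Among the 11 pairs whose mean fell, the largest after the pair on chromosome 8 were found on chromosomes 3, 6 and 12. At chr12:133263945-133264192 (247 bp), the minus-strand gene went from 2401 and 2664 to 1699 and 1727 normalized counts and the plus-strand gene from 308 and 391 to 142 and 188. Both genes were lower in each Top1 KD library. The mean fell by 0.82 (SE 0.16, limma adjusted p = 0.0044), with -0.56 and -1.08 for the partners, and it was called under each alternative tried for it.

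At chr3:196439164-196439245 (81 bp), the minus-strand gene went from 111 and 166 to 51.9 and 65.9 normalized counts and the plus-strand gene from 1546 and 1424 to 949 and 943. The groups did not overlap, and the mean fell by 0.92 (SE 0.22, limma adjusted p = 0.015). It was not called without scramble replicate 2, at -0.81, or without Top1 KD replicate 1, at -0.84. At chr6:27775709-27775899 (190 bp), a pair of genes spanning only 0.452 and 0.530 kb, the minus-strand gene went from 935 and 1101 to 372 and 580 and the plus-strand gene from 72.6 and 99.4 to 70.3 and 40.7. The mean of this pair fell by 0.89 (SE 0.25, limma adjusted p = 0.034), and the call was lost without any single library, at -0.72 to -1.06, and without the filter on low values.

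Of the 2 most abundant pairs, the mean of the first fell and that of the second was not called. At chr8:74206133-74206847 (714 bp), the minus-strand gene had 26684 and 25966 normalized counts in scramble and 18009 and 18016 in Top1 KD cells, and the plus-strand gene 1789 and 1552 in scramble and 915 and 949 in Top1 KD cells. The groups did not overlap for either gene, with log2 changes of -0.55 and -0.84, of which only the second was called. Their mean fell by 0.69 (SE 0.09, limma adjusted p = 0.00045), and their difference of -0.29 (SE 0.17) was not called. At chr12:54673886-54673977 (91 bp), the minus-strand gene had 3154 and 3382 in scramble and 3743 and 3958 in Top1 KD cells, and the plus-strand gene 23515 and 23109 in scramble and 17927 and 22698 in Top1 KD cells. Here the partners leaned in opposite directions, with changes of 0.24 and -0.21 and a mean of 0.01 (SE 0.08). The groups did not overlap for either gene. Their difference of -0.45 (SE 0.14, limma adjusted p = 0.048) passed the adjusted p but not the fold threshold.

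Within a pair, the log2 change of the longer gene tended to lie above that of the shorter, but the value differed between replicates. The change of the longer gene exceeded that of the shorter by a median of 0.10 log2 units, and it lay above it in 307 of the 552 pairs (55.6%). The median was 0.01 for 223 pairs with spans within 2-fold of each other, 0.13 for 261 pairs at 2-fold to 8-fold and 0.22 for 68 pairs beyond 8-fold. Of the 44 pairs called to differ, the change of the longer gene lay above that of the shorter in 29 and below it in 15. The same contrast between the Top1 KD replicates (second minus first) had a median of -0.11, and of -0.26 beyond 8-fold, as large as the one between the groups. For single pairs of libraries it was 0.14 and 0.10 with Top1 KD replicate 1 and 0.03 and -0.04 with Top1 KD replicate 2, and without Top1 KD replicate 1 it was -0.00.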

How the data were processed

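Total RNA from HEK293 cells was sequenced in 2 scramble and 2 Top1 KD libraries. The authors cleaned single-end reads, mapped them with TopHat2 (version 2.0.5 in the submitters' processing notes, which also name hg19, HTSeq and DESeq2) and kept uniquely mapped reads. The annotation release and the use of strand in counting are not given in the sources used here. Per the file headers, each deposited value is a signal, a library's count of reads on a gene after division by the DESeq2 size factor. In each library 100% of the values were whole multiples of 1 read after rounding (at least 99.99%, tolerance 0.01 reads), and reads were recovered from them. The authors also deposited their own comparison (a log2 fold change, scores for its error, test statistic and call, and a raw and an adjusted p-value), which was not used. No column of per-library values lacked a sample (0 columns). DRIP-seq, DRIPc-seq and ChIP-seq samples were not analysed here.

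The groups were compared with limma 3.58.1 (R 4.3.3, mean-variance trend) on log2 of the normalized count plus 1 for the 13086 genes that reached 10 normalized counts in 2 or more libraries, with Benjamini-Hochberg adjustment over all of them. The variance trend of the pair fits followed the mean level of the lower gene. Tests are two-sided. Alternatives were edgeR 4.0.16 and DESeq2 1.42.0 on the recovered reads, other scaling, pseudocounts, filters, fold thresholds and distances, the replicate number as a block, and each library left out. The fits were tested on simulated data. Named pairs were, where each gene averaged 100 normalized counts or more, the pair called in both genes, the 5 largest called differences, any pair called in opposite directions (0 found) and the 2 most abundant. At any level, the 2 nearest the distance limit on either side were named. Pairs with the largest called changes of the mean (4 higher, 4 lower) were added at any level after their values were seen. The members, lists and rules were chosen with earlier results of these data known. Gene lists by name and promoter sequences were not used here, since no identifier matched a name and no genome of this build was at hand.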

Additional observations from a re-analysis of the deposited data

How the results depend on the processing

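The absence of a correlation within pairs was seen under each alternative tried for it, with 50.5% to 54.2% of pairs moving in the same direction and a Spearman correlation of -0.02 to 0.03. With each library left out in turn (the lone sample of a group is then assumed to vary like the others), members called ranged from 13 to 109, pairs called in both genes the same way from 0 to 2, pairs called in opposite ways from 0 to 1, pairs whose partners differed from 13 to 91 and pairs whose mean changed from 13 to 33. The longer gene's median excess ranged from -0.0019 to 0.13 and the members' median relative to all genes from -0.13 to -0.081. Fewer libraries leave fewer degrees of freedom. The cause of the higher counts without Top1 KD replicate 2 was not tested.

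The fold threshold set the counts by construction. With a fold threshold midway between 1 and 1.5, 183 members, 13 pairs in the same and 5 in opposite directions and 66 pair means were called. At 2-fold the counts were 16 members, 0 pairs in both genes, 14 differences and 2 means. With no fold threshold they were 184 members, 13 and 5 pairs and 72 means. Over all chromosomes but Y and the mitochondrial one, an alternative chosen after seeing the data like that on overlapping genes and the medians, 2 of 642 pairs were called in both genes. edgeR called 83 members and DESeq2 79.

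With the replicate number as a block, 85 members, 1 pair in both genes, 65 differences and 22 means were called. Same-numbered libraries deviated from their group means with a correlation of only 0.02 over 2 numbers, and the labels do not tie the numbers to a shared batch, so the numbers were not taken to pair the samples. Of 132 values recomputed for tested changes of named pairs, 119 kept their call, 13 lost it and 0 changed direction. Of 71 pair means recomputed without a call (the pairs named for their level or distance), 6 changed sign, in 3 pairs whose mean lay near 0 (-0.09 to 0.05 after the change). Under 100 normalized counts, 3 of 137 members were called, 1 higher (0.73%) and 2 lower (1.46%). Of the 2051 other genes at this level, 16 were called higher (0.78%) and 36 lower (1.76%), so the shares were alike. The part of depth in this was not tested.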
